A study of Mus musculus with 6 samples.

Results

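The 75 genes described here encode proteins of the extracellular matrix, the protein and sugar scaffold between cells. They were taken by gene symbol from the 27998 genes of the count table: 44 collagen chains, 11 laminin chains, the 4 link proteins Hapln1 to Hapln4, and 15 further proteins named singly (Fn1, Sparc, Sparcl1, Acan, Bcan, Ncan, Vcan, Tnr, Tnc, Bgn, Lum, Nid1, Nid2, Hspg2 and Agrn). The symbol pattern for collagens also took Col4a3bp, which encodes a ceramide transfer protein and no collagen, so it is counted but set apart. Cells of the mouse preoptic region, the front part of the hypothalamus, were freed with protease, sorted for live cells and profiled by droplet-based single-cell RNA sequencing (10x Chromium) of polyA RNA. There were 6 libraries, 3 of female and 3 of male mice, and each library pooled 3 mice aged 60 to 70 days that had been housed alone for 3 days. All groups share that housing, the dissection and the sort, and the labels give neither strain nor genotype. Pooling leaves no value per mouse, and a library is the replicate throughout.

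Collagens form fibrils (types I, III, V, XI), the sheet-like network of basement membranes (type IV) or smaller assemblies attached to either. Laminins, assembled from an alpha, a beta and a gamma chain, form a second network of the basement membrane, which nidogens and the proteoglycan perlecan (Hspg2) tie to type IV collagen. In the brain, basement membranes wrap blood vessels, fibrillar collagens are largely kept to the vessel sheaths and meninges, and the space between neurons and glia is filled with lecticans (Acan, Bcan, Ncan, Vcan) that bind hyaluronan with the help of link proteins and are cross-linked by tenascin-R (Tnr). Perineuronal nets and the coats of nodes of Ranvier are dense forms of that matrix.

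Levels are given as UMIs (unique molecular identifiers, 1 per captured transcript) per 1000000 UMIs of a cell class in a library, written CPM. Because these values are not per length, a gene is compared across classes and not with other genes. Differences are on the log2 scale, as the first class named minus the second, with a standard error, from the edgeR quasi-likelihood test with the library as block. A gene was called higher or lower at an adjusted p (Benjamini-Hochberg over all genes tested) under 0.05.

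After filtering, 29822 cells remained, between 406 in female 3 and 9365 in female 2. Female 3 was also the shallowest library, with 1278429 of 217266089 UMIs. It held 5 mural cells, 27 endothelial cells, 13 microglia, 6 newly formed oligodendrocytes and 6 excitatory neurons, so values that rest on it are given with and without it. Classes were rebuilt from marker genes, with all 75 genes left out of clustering and of the marker lists, and each name below stands for cells that are like that type by its markers. The counts were 483 endothelial cells, 453 mural cells, 63 fibroblasts, 909 astrocytes, 1566 oligodendrocyte precursors, 445 newly formed and 4582 mature oligodendrocytes, 795 microglia, 77 macrophages, 117 dividing cells, 15115 inhibitory neurons and 3195 excitatory neurons. Defining markers lay where the names put them: Cldn5, a tight junction gene of endothelium, had 2855 CPM in endothelial cells and 12.4 CPM in mural cells, while Acta2, smooth muscle actin, had 11770 CPM in mural cells and 21.5 CPM in endothelial cells. In all, 479 barcode sequences were shared between libraries.

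The start regions of 4 collagen genes are shown because Col4a1 and Col4a2 start side by side and were both higher in endothelial cells and fibroblasts below, while Col1a2 and Col3a1 stood highest in fibroblasts. Each window runs from 250 bases before to 50 bases after the start site, 5′ to 3′ on the gene's strand (RefSeq, GRCm38.p6). Capitals mark every match on either strand to a GC box (GGGCGG, or CCGCCC on the other strand), a CCAAT box (CCAAT, or ATTGG) or a TATA box (TATAAA). Col4a1 and Col4a2 start head to head on chromosome 8, and their windows share 78 bases.
Col4a1, chr8:11312777-11313076, minus strand: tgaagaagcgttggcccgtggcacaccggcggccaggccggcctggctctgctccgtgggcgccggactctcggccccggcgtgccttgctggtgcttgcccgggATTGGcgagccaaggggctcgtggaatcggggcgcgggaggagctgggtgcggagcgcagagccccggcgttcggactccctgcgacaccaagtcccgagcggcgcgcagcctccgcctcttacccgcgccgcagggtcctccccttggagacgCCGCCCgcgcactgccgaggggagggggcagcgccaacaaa
Col4a2, chr8:11312555-11312854, plus strand: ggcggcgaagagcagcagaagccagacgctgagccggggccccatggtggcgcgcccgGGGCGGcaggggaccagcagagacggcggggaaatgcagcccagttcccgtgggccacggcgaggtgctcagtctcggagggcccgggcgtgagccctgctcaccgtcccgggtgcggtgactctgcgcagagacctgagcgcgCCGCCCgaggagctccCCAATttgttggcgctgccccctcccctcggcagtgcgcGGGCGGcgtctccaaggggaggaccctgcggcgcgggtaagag
Col1a2, chr6:4505368-4505667, plus strand: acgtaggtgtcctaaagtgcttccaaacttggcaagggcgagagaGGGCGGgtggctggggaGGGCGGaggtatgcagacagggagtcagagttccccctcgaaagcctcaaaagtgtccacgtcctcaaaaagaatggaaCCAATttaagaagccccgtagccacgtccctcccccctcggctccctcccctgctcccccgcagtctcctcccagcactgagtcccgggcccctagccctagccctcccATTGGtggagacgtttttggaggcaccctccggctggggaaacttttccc
Col3a1, chr1:45311288-45311587, plus strand: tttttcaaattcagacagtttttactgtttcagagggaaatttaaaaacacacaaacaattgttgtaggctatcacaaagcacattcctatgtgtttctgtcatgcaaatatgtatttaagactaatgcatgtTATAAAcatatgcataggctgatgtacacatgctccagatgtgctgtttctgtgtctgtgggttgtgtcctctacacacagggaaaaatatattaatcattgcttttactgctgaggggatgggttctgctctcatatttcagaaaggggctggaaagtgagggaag
The Col4a1 and Col4a2 windows were 74.0% and 73.7% G or C, Col1a2 61.0% and Col3a1 37.7%. Col4a1 held 1 GC box and 1 CCAAT box, Col4a2 3 GC boxes and 1 CCAAT box, Col1a2 2 of each, and Col3a1 a single TATAAA at base -117 from the start and neither of the other motifs. The GC box of Col4a1 and 1 of those of Col4a2 are the same bases of the shared stretch, read from opposite strands. Over all 32851 promoter windows, 35.7% held a GC box, 37.4% a CCAAT box and 13.6% a TATA box. Among 60 windows of the 54 matrix genes with an entry, 37, 19 and 9 held them. A match is a run of letters and no evidence of binding.

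Matrix transcripts were spread very unevenly over the classes. Each of the 75 genes had at least 1 UMI, 14 had fewer than 100 UMIs over all cells, and 37 reached 50 CPM in at least 1 class. The class with the highest level was fibroblasts for 36 genes, oligodendrocyte precursors for 7, mural cells for 7, newly formed oligodendrocytes for 6, excitatory neurons for 5, endothelial cells, inhibitory neurons and dividing cells for 3 each, mature oligodendrocytes and microglia for 2 each and astrocytes for 1 (Hapln1). For 16 of the 36 fibroblast genes that level rests on 24 UMIs or fewer, so their order of classes is not fixed. Fibroblasts had 27 of the genes at or above 50 CPM, mural cells 9, endothelial cells 8, precursors 7, newly formed oligodendrocytes 6, astrocytes 5, mature oligodendrocytes 3, excitatory neurons 3, inhibitory neurons 2 and microglia 1. Summed over the 75 genes, fibroblasts had 9657, 12940 and 15520 CPM in their lowest, median and highest library. The same sum was 5045, 6878 and 9747 CPM in astrocytes, 5674, 6396 and 7010 CPM in mural cells and 3531, 4729 and 5507 CPM in endothelial cells. In mature oligodendrocytes it was 572.0, 619.7 and 712.3 CPM, close to excitatory neurons at 487.6, 547.8 and 641.0 CPM and inhibitory neurons at 421.4, 488.9 and 572.2 CPM. The ranges of these 3 classes overlapped. Within each library mature oligodendrocytes were above inhibitory neurons, and they were below excitatory neurons in male 1 and male 2 only. An unnamed cluster with mature oligodendrocyte markers, cluster 13 described below, had 1160, 1240 and 1364 CPM.

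**Figure D1:**
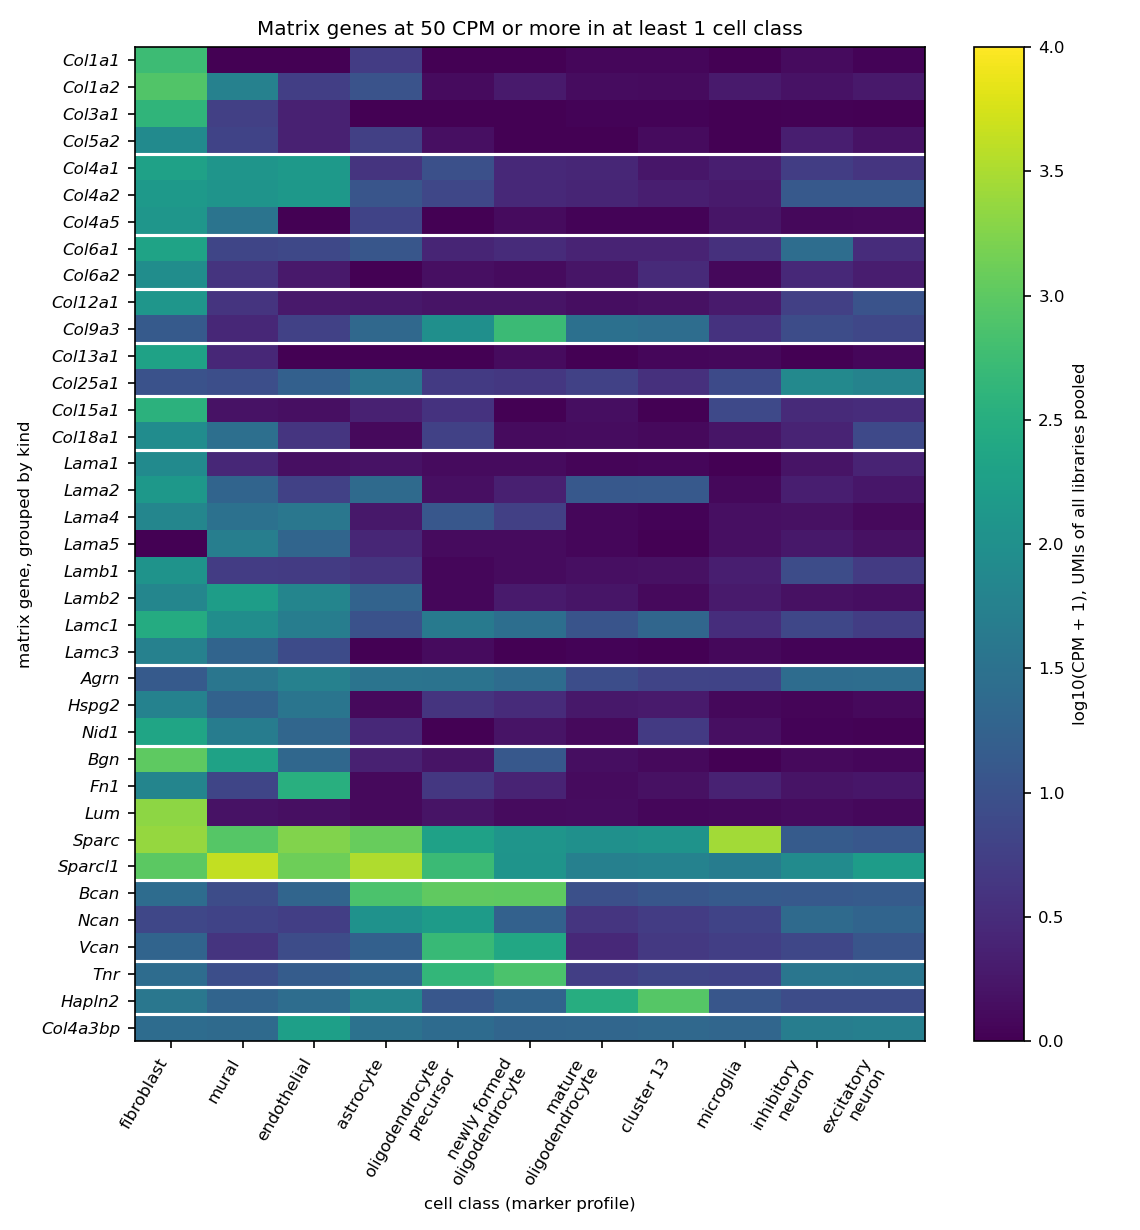
Heat map of the 37 matrix genes that reached 50 CPM in at least 1 class (rows) across 11 cell classes (columns), coloured by log10 of CPM + 1 of the summed UMIs of all libraries. The bright block of collagens and laminins lies in the fibroblast column. Bcan, Vcan and Tnr stand in the oligodendrocyte precursor and newly formed oligodendrocyte columns, and Sparc spans vessels, fibroblasts, astrocytes and microglia.

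Endothelial cells, which line the vessels, carried the genes of the basement membrane. Type IV collagen, the laminin chains Lama4 and Lamb2, perlecan and fibronectin were higher than in neurons, together with Sparc and Sparcl1. Fibronectin (Fn1), a cell-binding matrix glycoprotein, had 308, 268 and 244 CPM in female 1 to 3 and 376, 452 and 346 CPM in male 1 to 3, against 0.902 CPM or less in neurons of the same libraries. The difference was 9.43 ± 0.263 (adjusted p = 3.97e-14), and Fn1 was at its highest here among all classes. Col4a1, a chain of the basement membrane network, had 137, 129 and 122 CPM in female and 167, 164 and 128 CPM in male endothelial cells, against 2.16 to 5.60 CPM in neurons. It rose by 5.52 ± 0.169 (adjusted p = 7.93e-14). Its partner chain Col4a2 had 73.2, 116 and 164 CPM in the lowest, median and highest endothelial library, against 7.62, 12.4 and 17.3 CPM in neurons (3.84 ± 0.191, adjusted p = 2.78e-11). For these 3 genes the 6 endothelial values lay above the 6 neuronal ones.

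Of the laminins, Lama4, the alpha chain of endothelial basement membranes, had 24.4, 37.4 and 57.7 CPM in endothelial cells, against 0.363, 0.460 and 2.16 CPM in neurons (6.66 ± 0.336, adjusted p = 3.28e-11). Lamb2 had 41.2, 76.6 and 195 CPM in endothelial cells, against at most 0.782 CPM in neurons (7.29 ± 0.270, adjusted p = 6.18e-13). Perlecan (Hspg2) had 28.4, 36.9 and 48.8 CPM, against at most 0.200 CPM in neurons (8.17 ± 0.339, adjusted p = 2.59e-12). These 3 genes separated the classes in all 6 libraries. Sparc, a collagen-binding glycoprotein, had 1252, 2063 and 2704 CPM in endothelial cells, against 4.32, 11.0 and 18.8 CPM in neurons (7.73 ± 0.269, adjusted p = 3e-13). Its relative Sparcl1 (hevin) had 1106, 1453 and 1806 CPM, against 43.2, 96.9 and 104 CPM in neurons (4.28 ± 0.205, adjusted p = 1.65e-11). Agrin (Agrn), a proteoglycan of basement membranes and synapses, was called higher by 1.47 ± 0.252 (adjusted p = 0.000117) but was at 0 in male 3, where neurons were not.

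Of the 75 genes, 15 passed the filter on low counts in endothelial cells and neurons. Of these, 10 were called higher, where 29.3% of the 8381 genes tested were, and 5 lower, where 31.4% were. The 5 were Ncan (-2.02), Col25a1 (-1.91), Col11a1 (-1.87), Hapln4 (-1.26) and Tnr (-1.07). The median difference was 3.84 over the 15 and -0.09 over all genes tested, which describes genes that largely passed because endothelial cells had them. Female 3 set the filter: without it 27 passed, 15 were higher and 8 lower, where the shares over all genes were 27.9% and 27.8%, and nidogens Nid1 (8.01) and Nid2 (6.53) and laminin Lamc1 (3.53) joined the calls. The gene set apart, Col4a3bp, was also higher in endothelial cells, by 2.25 ± 0.161. Red blood cell markers summed to between 0 and 46690 CPM in the endothelial libraries and the 10 neuronal markers to between 48.8 and 5928 CPM, none of which was at 0 over the class. Their part in these levels was not tested.

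Mural cells, the smooth muscle cells and pericytes around the vessels, shared the basement membrane genes and added biglycan and a fibrillar collagen chain. Biglycan (Bgn), a small leucine-rich proteoglycan that binds collagen, had 195, 175 and 102 CPM in female and 141, 222 and 549 CPM in male mural cells, against at most 0.586 CPM in neurons. It rose by 9.45 ± 0.234 (adjusted p = 3.96e-32). Nid1 (nidogen-1), the linker of laminin and type IV collagen, had 38.7, 45.6 and 120.5 CPM at its lowest, median and highest, against at most 0.234 CPM in neurons (8.60 ± 0.399, adjusted p = 2.82e-22). Col1a2, a chain of fibrillar type I collagen, had 26.2, 68.0 and 102 CPM, against at most 0.977 CPM in neurons (6.16 ± 0.319, adjusted p = 1.54e-20). The other chain of type I collagen, Col1a1, had 0 UMIs in 1700711 mural UMIs. Sparcl1 had 3428, 4156 and 4672 CPM in mural cells (5.26 ± 0.154, adjusted p = 1.61e-29), and Sparc 583, 973 and 1794 CPM (6.11 ± 0.176, adjusted p = 8.6e-30). Both lay above neurons in 6 of 6 libraries. Over summed UMIs mural cells were the highest class for Sparcl1, but the range overlapped that of astrocytes (2849 to 4903 CPM).

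Of 10 genes that passed the filter in mural cells and neurons, 6 were called higher, where 14.8% of all genes tested were, and 3 lower, where 62.4% were. The sixth higher gene was Col4a1, at 53.6, 110.1 and 152 CPM (4.63 ± 0.196, adjusted p = 1.08e-23). Genes such as Bgn, Nid1 and Col1a2 passed because mural cells had them, so this count too is a description, and the median of all genes stood at -0.72. Female 3, with 5 mural cells, decided both counts: without it 36 passed, 21 were higher and 9 lower, where the shares over all genes were 25.4% and 30.7%. The added calls included Lamb2 (8.74), the type IV chains Col4a6 (8.36), Col4a5 (7.50), Col4a3 (4.97) and Col4a2 (3.66), the laminins Lamc3 (7.68), Lama5 (6.43), Lama4 (6.41), Lama2 (4.47) and Lamc1 (4.40), and Col18a1 (3.86), whose product is cut to endostatin. Lamb2 had 183 and 128 CPM in mural cells of female 1 and 2 and 218, 159 and 201 CPM in those of the males, and 0 in female 3. Neuronal markers summed to between 102 and 5533 CPM in the mural libraries, and their part was not tested.

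Mural and endothelial cells differed in which of the vessel genes they held most of. Fn1 was lower in mural cells (-5.76 ± 0.282, adjusted p = 2.46e-14), with 0, 5.55 and 13.4 CPM in mural cells and 244, 327 and 452 CPM in endothelial cells. Bgn was higher by 3.25 ± 0.330 (adjusted p = 9.69e-09) in mural cells, whose lowest value of 102 CPM was above the highest endothelial value of 39.8 CPM. The laminins Lama5 (1.35, adjusted p = 0.00132), Lamb2 (1.32, adjusted p = 0.000167) and Lamc1 (0.85, adjusted p = 0.00295) and the nidogen Nid1 (1.21, adjusted p = 0.00227) were also higher in mural cells. Sparcl1 was higher by 1.46 ± 0.215 (adjusted p = 4.1e-06), while Sparc (-1.07 ± 0.194, adjusted p = 7.22e-05) and Hspg2 (-1.09 ± 0.351, adjusted p = 0.0163) were lower. The call for Hspg2 was lost without female 1 (-0.94, adjusted p = 0.061). The type IV chains Col4a1 and Col4a2 were not called (-0.33 ± 0.189, adjusted p = 0.2, and -0.23, adjusted p = 0.413), which does not show that they were equal. Of 14 genes tested, 6 were higher, where 14.1% of all genes were, and 4 lower, where 20.7% were, the fourth being Col4a3bp (-2.98).

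Within the mural class, 399 cells carried smooth muscle markers and 25 pericyte markers, and 3 libraries (female 1, male 1 and male 3) held at least 5 of each. Sparcl1 had 5279.8, 4756 and 3721 CPM in smooth muscle cells of these libraries, against 2457, 1857 and 2262 CPM in pericytes (1.05 ± 0.172, adjusted p = 0.00403). Sparc had 739, 1031 and 1442 CPM in smooth muscle cells, against 2457, 4148 and 3194 CPM in pericytes, so it was lower in smooth muscle cells (-1.67 ± 0.213, adjusted p = 0.00137). Bgn had 213, 128 and 352 CPM in smooth muscle cells, against 402, 495 and 1331 CPM in pericytes (-1.59 ± 0.336, adjusted p = 0.0121), a call that was lost without male 1 (-1.40, adjusted p = 0.0713) or without male 3 (-1.19, adjusted p = 0.126). The cell types did not overlap for any of these genes in the 3 libraries. The fibroblast marker Dcn had 343.6 CPM in pericytes and 1.45 CPM in smooth muscle cells, with a UMI in 28% of pericytes and 0.501% of smooth muscle cells. The 10 fibroblast markers summed to between 1300.2 and 2528 CPM in the pericyte libraries and between 1123 and 1961 CPM in those of smooth muscle cells, with 3 of them at 0 in each type. Their part in the Sparc and Bgn differences was not tested. These were the 3 genes that passed the filter, of which 1 was higher and 2 were lower, where 10.8% and 11.6% of the 722 genes tested were. The pericyte sums held 58205 UMIs in all, which limits what could be detected for the rarer genes.

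Fibroblasts, 63 cells in all with 11 and 23 in female 1 and 2 and 9, 13 and 5 in male 1 to 3, had the widest set of matrix genes. The 2 cells of female 3 were not used, so n is 5 libraries. Of the 11 fibrillar chains, 6 had their highest class there, led by the chains of type I and type III collagen. For Col5a1 and Col5a3 this rests on 1 and 9 UMIs in fibroblasts, so their order of classes is not fixed. Col1a1 had 447 and 398 CPM in female and 525, 780 and 1095 CPM in male fibroblasts, against at most 0.391 CPM in neurons (11.09 ± 0.371). Col1a2 had 706 and 580 CPM in female and 1208, 1009 and 1194 CPM in male fibroblasts (10.35 ± 0.339). Col3a1, the chain of type III collagen that mixes into type I fibrils, had 517 and 279 CPM in female and 788, 363 and 647 CPM in male fibroblasts, against 6 UMIs in all neurons (13.18 ± 0.410). The adjusted p by edgeR was 2.46e-191 for Col1a1, 1.45e-200 for Col1a2 and 1.14e-221 for Col3a1. No fibroblast library came near a neuronal value for these genes.

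The small leucine-rich proteoglycan lumican (Lum), which spaces collagen fibrils, had 1411 and 1788 CPM in female and 1891, 2557 and 3582 CPM in male fibroblasts, against at most 0.470 CPM in neurons (12.90 ± 0.362, adjusted p = 2.7e-270). Bgn had 988 and 936 CPM in female and 1261, 996 and 1244 CPM in male fibroblasts (12.08 ± 0.366). Col15a1, a basement-membrane-zone collagen, had 470 and 244 CPM in female and 420, 471 and 547 CPM in male fibroblasts (7.61 ± 0.298). The transmembrane collagen Col13a1 had 99.5, 188 and 289 CPM at its lowest, median and highest (11.58 ± 0.460). Fibroblasts stood apart from neurons in 5 of 5 libraries for these 4 genes. Basement membrane genes were present too: Nid1 had 161, 223 and 394 CPM (11.22 ± 0.454), Lamc1 149, 259 and 394 CPM (5.63 ± 0.317) and Lama2 97.8, 131 and 235 CPM (7.02 ± 0.425). Type VI collagen, which forms beaded microfibrils, was represented by Col6a1 (3.16 ± 0.317) and Col6a2 (5.66 ± 0.475).

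By role, 3 of the 4 fibrillar collagens tested were higher, 3 of 3 type IV chains, 2 of 2 type VI chains, 2 of 4 fibril-associated collagens, 5 of 6 laminins, 3 of 4 among nidogens, perlecan and agrin, and the 4 tested of Sparc, Sparcl1, Fn1, Bgn and Lum (Fn1 did not pass the filter). None of 3 lecticans tested was called in either direction. In all, 26 of the 38 genes that passed the filter were higher, where 11.1% of the 11415 genes tested were, and 1 lower (Col25a1, with 3 UMIs in fibroblasts, a ratio of 0.130 with an exact 95% interval of 0.0267 to 0.379), where 19.3% were. As in endothelial cells, many of the 38 passed because fibroblasts had them, so their count is a description. Hapln2 was among the 26 (2.43, adjusted p = 0.000352), but it had 398 CPM in male 3 and at most 23.5 CPM in the other fibroblast libraries. Without male 3 it was at 0.86 (adjusted p = 0.532), and the 9 mature oligodendrocyte markers summed to between 964 and 28610 CPM in the fibroblast libraries. That part was not tested. Fn1 had 147 CPM in fibroblasts of female 2 and 0 in the other 4, and Lama5 had 0 UMIs.

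Set against mural cells, fibroblasts differed most in lumican and fibrillar collagen. Lum had 650 UMIs in fibroblasts and 1 UMI in mural cells, a ratio of 3454 per UMI of the class with an exact 95% counting interval of 618 to 136630.0 (adjusted p = 4.18e-09 by edgeR). That interval covers counting error only. Col1a1, at 0 UMIs in mural cells, was at least 312-fold higher in fibroblasts by a floor of 3 UMIs over the group. Col3a1 was higher by 6.52 ± 0.330 (adjusted p = 3.74e-08), Col1a2 by 4.11 ± 0.223 (adjusted p = 5.49e-08) and Bgn by 2.34 ± 0.253. Sparcl1 was lower in fibroblasts, at 847, 1077 and 1244 CPM against 3428 CPM or more in mural cells (-1.94 ± 0.183, adjusted p = 4.08e-06), and Lamb2 was lower as well (-1.39 ± 0.413, adjusted p = 0.0192), a call lost without male 2 (-1.37, adjusted p = 0.0553). Of 15 genes tested, 12 were higher, where 17.9% of all 1958 genes tested were, and 2 lower, where 17.6% were. Without male 3 there were 19 higher, and without male 2 there was 1 lower. The call for Col4a1 (0.76, adjusted p = 0.0442) was lost under 12 alternatives, and Col4a2 was not called (0.35, adjusted p = 0.412).

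**Figure D2:**
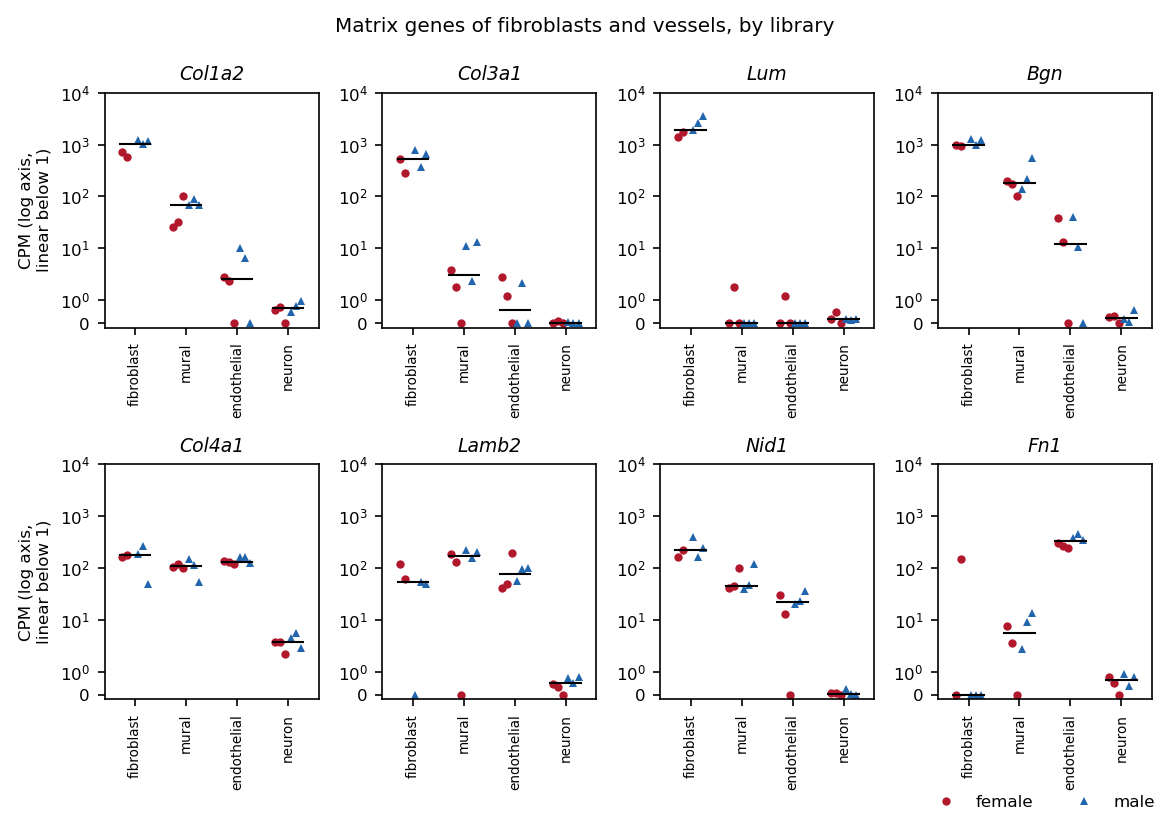
Levels of 8 matrix genes (CPM on an axis that is logarithmic above 1 and linear below) in fibroblasts, mural cells, endothelial cells and neurons, with 1 point per library (red circles female, blue triangles male) and a line at the median. Lum, Col3a1 and Col1a2 step down between fibroblasts and mural cells, Col4a1 overlaps between the 3 vessel and fibroblast classes, and Fn1 stands highest in the 6 endothelial sums, between 244 and 452 CPM.

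Astrocytes, the glia whose end-feet cover vessels, were rich in Sparcl1, Sparc and brevican. Sparcl1 had 4775, 2907 and 4903 CPM in female and 3290.4, 2849 and 4669 CPM in male astrocytes, against 43.2, 96.9 and 104 CPM in neurons at their lowest, median and highest (5.44 ± 0.25, adjusted p = 2.59e-10). Sparc had 1935, 1001 and 2009 CPM in female and 1157, 938 and 1523 CPM in male astrocytes (6.83 ± 0.272, adjusted p = 6.29e-11). Brevican (Bcan), a lectican found around synapses and nodes, had 915, 630 and 1949 CPM in female and 719, 647 and 1332 CPM in male astrocytes, against at most 16.0 CPM in neurons (6.18 ± 0.287, adjusted p = 2.78e-10). None of the 6 astrocyte sums overlapped the neuronal ones for these genes. Neurocan (Ncan) had 86.6, 122 and 217 CPM in astrocytes, against 19.6, 25.7 and 33.4 CPM in neurons (2.28 ± 0.152), and versican (Vcan) 13.9, 15.9 and 20.7 CPM against 0, 6.13 and 8.49 CPM (1.21 ± 0.265). Hapln1, a link protein that stabilises lecticans on hyaluronan, had its highest class in astrocytes, with 22.6, 38.6 and 197 CPM, against 1.17, 1.72 and 2.16 CPM in neurons (4.38 ± 0.290).

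Of 17 genes that passed the filter in astrocytes and neurons, 8 were called higher, where 21.4% of the 9792 genes tested were, and 6 lower, where 41.2% were. All 3 lecticans tested were higher. The lower ones were Hapln4 (-1.31), Col25a1 (-1.18), Col6a1 (-1.15), Tnr (-0.99), Col11a1 (-0.88) and Col4a3bp (-0.68). Of these, Col6a1 was lost without female 3 (-0.88, adjusted p = 0.0598) or male 1 (-0.82, adjusted p = 0.0905), and Col4a3bp without male 2 (-0.61, adjusted p = 0.0623). The smaller of the 2 astrocyte clusters, 90 cells with none in female 3, carried mature oligodendrocyte markers at 49001 to 77096 CPM, and the higher call of Hapln2 (3.23) lay with it, since its level there was 299 to 484 CPM and 8.83 CPM in the larger cluster. With the smaller cluster left out, a choice made after the data had been seen, the lower calls were 2, Col25a1 and Hapln4. Neuronal markers summed to between 19.7 and 7543 CPM in the astrocyte libraries, with 0 of 10 absent, and their part was not tested. Without female 3, 27 genes passed, 15 were higher and 7 lower, where the shares over all genes were 27.1% and 26.5%, and the added calls included Lamb2 (5.27), Lama2 (4.72), a laminin alpha chain known from astrocyte end-feet, and Col1a2 (4.05).

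Oligodendrocyte precursors, the glia that give rise to myelin-forming cells, held the 4 lecticans and tenascin-R at high levels. Bcan had 1064, 988 and 1282 CPM in female and 967, 1087 and 1387 CPM in male precursors, against at most 16.0 CPM in neurons (6.45 ± 0.0976, adjusted p = 2.22e-39). Vcan had 523, 487 and 442 CPM in female and 508, 532 and 378 CPM in male precursors (6.19 ± 0.0883). Tnr, the tenascin of the nervous system, had 413, 471 and 468 CPM in female and 385, 509 and 332 CPM in male precursors, against 19.4, 33.7 and 38.6 CPM in neurons (3.64 ± 0.0744). In 6 of 6 libraries precursors stood above neurons for these genes. Ncan had 128, 167 and 230 CPM in precursors (2.75 ± 0.0817), and aggrecan (Acan), the lectican best known from perineuronal nets, 15.3, 22.2 and 97.2 CPM, against at most 0.522 CPM in neurons (5.60 ± 0.271). Precursors also had several cartilage-type collagens: Col9a3 at 82.3, 94.1 and 119 CPM (3.73 ± 0.107), Col11a1 at 43.4, 48.4 and 55.0 CPM (1.32 ± 0.115), Col11a2 at 30.6, 36.7 and 39.2 CPM (3.84 ± 0.174) and Col27a1 at 18.7, 33.3 and 48.4 CPM (5.31 ± 0.203).

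Of 23 genes that passed the filter in precursors and neurons, 18 were called higher, where 36.3% of the 11002 genes tested were, and 5 lower, where 38.8% were. By role, 4 of 4 lecticans, 3 of 3 fibrillar collagens, 3 of 3 fibril-associated collagens and 2 of 2 laminins (Lama4, 4.45, and Lamc1, 2.94) were higher. The lower ones were Col25a1 (-4.27), Col6a1 (-3.88), Hapln4 (-2.57), Col4a3bp (-1.03) and Col4a2 (-0.95). The smallest higher calls were the weakest: Hapln2 (0.55, adjusted p = 0.0385) was lost without any 1 of the 3 female libraries, and Agrn (0.36, adjusted p = 0.00939) was lost without female 1. Without female 3, 31 genes passed, with 22 higher, where 35.5% of all genes were, and 8 lower, where 38.7% were.

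Along the oligodendrocyte lineage the lecticans were lower in mature cells and link protein Hapln2 was higher. Vcan had 378, 498 and 532 CPM in precursors, 142, 225 and 269 CPM in newly formed oligodendrocytes and 1.08, 1.58 and 3.46 CPM in mature ones. Bcan had 967, 1075 and 1387 CPM in precursors, 851, 1115 and 1538 CPM in newly formed cells and 0, 8.34 and 12.1 CPM in mature cells. Ncan had 128, 167 and 230 CPM, then 10.2, 17.4 and 30.3 CPM, then 1.67, 3.60 and 4.45 CPM along the same 3 stages. So Bcan overlapped between precursors and newly formed cells while Ncan did not, and no lectican overlapped between newly formed and mature cells among these 3. Tnr and Col9a3 were at their highest in the middle stage. Tnr had 332, 441 and 509 CPM in precursors, 603, 733 and 809 CPM in newly formed cells and 0, 2.94 and 6.94 CPM in mature cells. Col9a3, a chain of fibril-associated type IX collagen, had 82.3, 94.1 and 119 CPM, then 448, 576 and 817 CPM, then 23.8, 27.6 and 36.9 CPM. Newly formed cells had no value shared with either neighbour for these 2 genes, and no test was run on that stage.

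Mature oligodendrocytes set against precursors had 17 of 20 tested genes lower, where 35.2% of the 9850 genes tested were, and 3 higher, where 34.9% were. The median difference was -2.55 over the 20 and -0.00 over all genes. Vcan fell by 7.43 ± 0.126 (adjusted p = 5.78e-18), Bcan by 6.31 ± 0.146, Acan by 6.09 ± 0.422, Tnr by 6.01 ± 0.153 and Ncan by 4.97 ± 0.156, so all 4 lecticans fell. Lama4 fell by 5.07 ± 0.507 and Sparcl1 by 2.67 ± 0.101. Hapln2 (Bral1), a link protein known from the matrix at nodes of Ranvier, had 332, 333 and 491 CPM in female and 294, 277 and 321 CPM in male mature oligodendrocytes, against 0, 10.5 and 17.7 CPM in precursors (5.47 ± 0.159, adjusted p = 7.16e-16). Lama2 had 6.36, 10.7 and 12.4 CPM in mature cells and 3 UMIs in precursors, a ratio of 24.0 with an exact 95% counting interval of 8.14 to 117 (adjusted p = 1.99e-08 by edgeR). Without scaling of the libraries the median of all genes moved by -0.64, and the third higher call, Col4a3bp (0.39, adjusted p = 0.0204), turned to -0.23. It was also lost without female 1 (0.35, adjusted p = 0.062). Without male 1 the higher calls were 1 instead of 3.

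Set against neurons, mature oligodendrocytes had 10 of 30 tested genes higher, where 40.9% of all genes were, and 16 lower, where 42.5% were. Hapln2 led (6.19 ± 0.182, adjusted p = 8.32e-12), followed by Lama2 (4.15 ± 0.180), Col27a1 (3.90 ± 0.232), Sparc (3.86 ± 0.136), Col6a3 (3.28 ± 0.264) and Col9a3 (2.69 ± 0.110). Sparc had 69.2, 105 and 109 CPM in mature oligodendrocytes. The lower ones were led by Col19a1, with 2 UMIs in mature oligodendrocytes and 433 in neurons (ratio 0.0258, exact 95% interval 0.00311 to 0.0937), Hapln4 (-3.31), Col6a1 (-3.21), Col25a1 (-3.20), Lamb1 (-3.12) and Col12a1 (-3.08). Without scaling, the median of all genes was lower by 0.78 in this comparison. Cluster 13, 2022 cells led by Klk6, Plin3 and Anln, had 9 of 9 mature oligodendrocyte markers in over 50% of its cells but was left unnamed, because a marker of newly formed oligodendrocytes and none of the mature list stood among its 10 leading genes. Hapln2 reached 866, 802 and 1063 CPM in its female and 938, 868 and 1058 CPM in its male libraries. The smaller and larger named clusters of mature oligodendrocytes had 213 to 411 and 389 to 549 CPM, below cluster 13 in each case. Hapln2 was left out of the clustering, and since these clusters differ in other genes of the same cells, no test of them is given. A Hapln2 UMI was seen in 71.4% of cluster 13 cells and 36.8% of mature oligodendrocytes after thinning to 1500 UMIs per cell, and in 1.34% of neurons, which mark the free RNA. Before thinning these were 96.7%, 68.0% and 5.57%, at a median of 5218, 4656 and 7002.5 UMIs per cell.

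**Figure D3:**
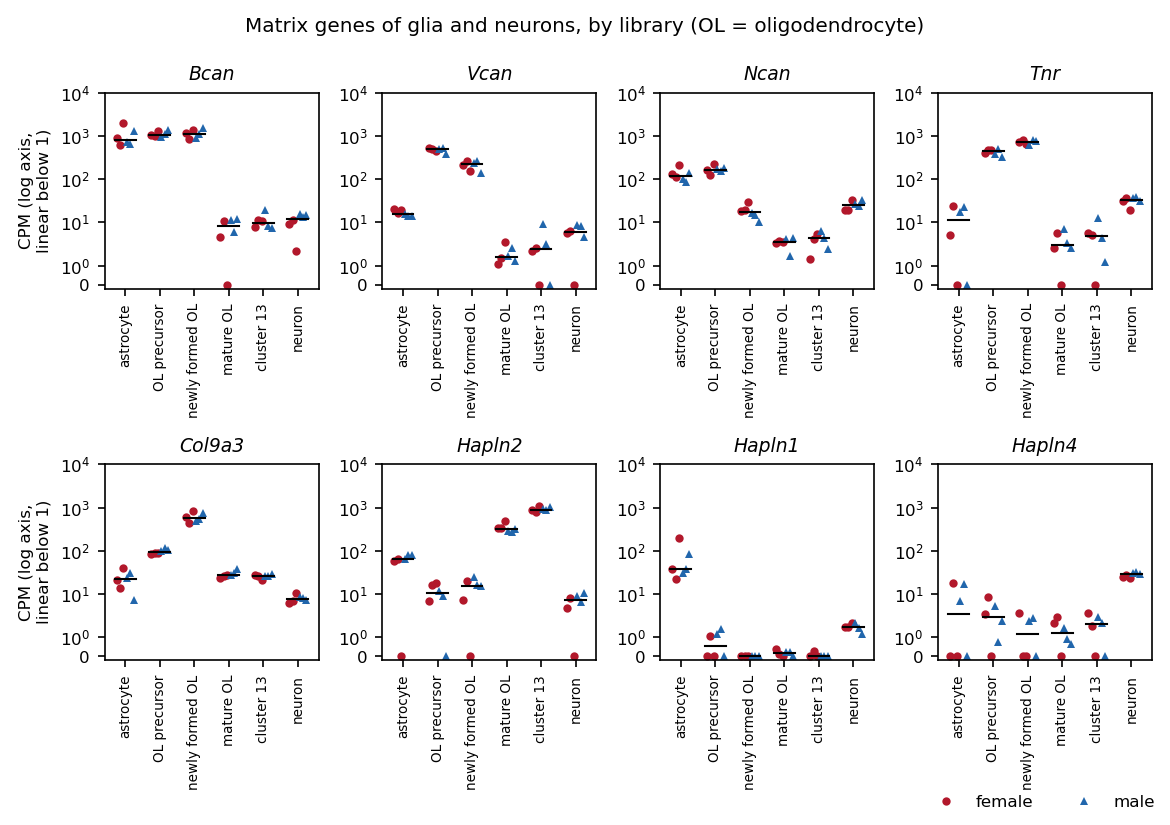
Levels of 8 matrix genes (CPM, axis logarithmic above 1 and linear below) in astrocytes, oligodendrocyte (OL) precursors, newly formed and mature oligodendrocytes, cluster 13 and neurons, with 1 point per library (red circles female, blue triangles male) and a line at the median. Bcan, Vcan and Tnr are high in precursors and newly formed cells and near or under 10 CPM in mature cells, while Hapln2 climbs to between 802 and 1063 CPM in cluster 13 and Hapln1 stands highest in astrocytes.

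Microglia, the resident macrophages of the brain, had 1 matrix gene at or above 50 CPM in their summed UMIs. Sparc had 2967, 2274 and 2693 CPM in female and 2944, 3029.6 and 3519 CPM in male microglia, against 4.32, 11.0 and 18.8 CPM in neurons (7.95 ± 0.197, adjusted p = 2.87e-45). Over summed UMIs microglia were its highest class, but the range overlapped that of fibroblasts (1836 to 3020.4 CPM) and that of the pericytes within the mural class (2457 to 4148 CPM). Sparc had 13.1 and 34.3 CPM in female and 41.6 and 52.1 CPM in male macrophages of the 4 libraries that held at least 5 of them. After thinning to 1500 UMIs, 96.2% of microglia, 5.33% of macrophages and 1.98% of neurons had a Sparc UMI, and before thinning 99.9%, 15.6% and 8.49% did, at a median of 5146, 3788 and 7002.5 UMIs per cell. Macrophages were not tested. Col27a1, a fibrillar collagen, had 37.0, 50.3 and 61.9 CPM in microglia, also its highest class, against 0.726, 0.869 and 2.16 CPM in neurons (5.79 ± 0.221). It had 0 UMIs in macrophages.

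The other tested genes were mostly lower in microglia. Of 13 that passed the filter, 2 were higher, where 19.5% of the 9874 genes tested were, and 10 lower, where 69.3% were, and the median of all genes tested was -1.15. The largest were Hapln4 (-4.07), Col11a1 (-4.02), Col9a2 (-3.49), Col25a1 (-3.42), Col6a1 (-3.11) and Tnr (-2.71). Female 3, with 13 microglia, set that offset. Without it Sparc was at 8.91 and Col27a1 at 6.80, the shares over all genes were 33.6% and 39.8%, and 4 of 21 tested genes were higher and 12 lower. The calls for Col4a3bp (-1.32) and Sparcl1 (-1.02) were lost without female 3 (-0.32, adjusted p = 0.118, and -0.14, adjusted p = 0.439).

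In their summed UMIs, neurons had 3 matrix genes at or above 50 CPM, Sparcl1 (98.97 CPM), Col25a1 (72.7 CPM) and Col4a3bp (50.1 CPM), followed by Tnr (35.8 CPM) and Hapln4 (28.3 CPM). Col25a1, a brain collagen that spans the membrane, had its highest class in inhibitory neurons, with 72.5, 63.5 and 71.4 CPM in female and 87.7, 90.4 and 72.7 CPM in male libraries, against 53.0, 51.7 and 69.7 CPM in female and 77.4, 78.2 and 52.4 CPM in male excitatory neurons. The difference was small (0.31 ± 0.0478, adjusted p = 3.05e-06), and the ranges of the classes overlapped. The call was lost without the library block and with cells thinned to 1500 UMIs (0.17, adjusted p = 0.228 by edgeR). Col6a1 differed most, with 17.6, 32.5 and 66.8 CPM in inhibitory and 1.30, 2.47 and 34.8 CPM in excitatory neurons at the lowest, median and highest library (3.50 ± 0.137, adjusted p = 2.93e-21). The 34.8 CPM of female 3 was 1 UMI from 6 cells, and without that library the difference was 3.52. Lamb1, a laminin beta chain, had 4.61, 7.35 and 8.61 CPM in inhibitory and 0, 3.96 and 4.43 CPM in excitatory neurons (0.95 ± 0.142, adjusted p = 1.42e-06).

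Lower in inhibitory than excitatory neurons were Col18a1 (-2.10 ± 0.179, adjusted p = 1.08e-11) and Sparcl1 (-0.91 ± 0.0472, adjusted p = 1.08e-17). Sparcl1 had 39.1, 80.6 and 92.7 CPM in inhibitory and 104.5, 159 and 182 CPM in excitatory neurons, with no overlap. Hapln4 (Bral2), a link protein known from synaptic perineuronal nets, had 21.8, 26.2 and 30.2 CPM in inhibitory and 29.7, 36.3 and 41.4 CPM in excitatory neurons (-0.50 ± 0.0645, adjusted p = 9.31e-08). Of 28 genes tested, 7 were higher, where 18.2% of the 12423 genes tested were, and 7 lower, where 17.4% were. Those shares are near the members' own, and the medians were -0.11 over the 28 and -0.00 over all genes. The remaining higher calls were Lamc1 (0.53), Col4a1 (0.47), Ncan (0.37) and Col9a3 (0.33), and the remaining lower ones Col12a1 (-0.91), Col16a1 (-0.75), Vcan (-0.73) and Col11a1 (-0.33). The call for Col9a3 was lost without any 1 of female 1, 2 or 3 or male 1 or 2 (0.24 to 0.37, adjusted p of 0.0521 to 0.208). Col4a1 was lost without female 2 (0.52, adjusted p = 0.0596) or male 2 (0.34, adjusted p = 0.175), and Lamc1 without female 1 (0.40, adjusted p = 0.051). Without the library block these 3 calls and that for Col11a1 were lost. With thinned cells the calls for Col9a3, Col11a1 and Ncan were lost.

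Clustered alone, neurons fell into 33 clusters, and several matrix genes were concentrated in 1 or 2 of them. This is a description of clusters built from other genes of the same cells, with no test, although Col6a1 and Lamb3 were themselves among the 10 leading genes of clusters 19 and 12. Col6a1 had 184 CPM in cluster 19, led by Drd1 and Ankrd63, where 48.7% of 378 cells had a UMI, and its 6 libraries spanned 123 to 393 CPM. The next was cluster 0, led by the early response genes Egr2, Egr4 and Arc, at 126 CPM, and the median cluster had 3.11 CPM. Lamb1 also had its highest cluster in 19, at 36.9 CPM, with a median cluster at 3.17 CPM. Cluster 16, led by Coro6, Vamp1 and Fndc5, had the highest Col25a1 (191 CPM against a median cluster of 61.2), Hapln4 (92.4 against 26.2), Tnr (90.2 against 30.8) and Bcan (50.6 against 8.81). Hapln4 spanned 73.1 to 144 CPM in its 6 libraries and Tnr 54.8 to 105 CPM. Bcan was at 0 in female 3 and at 36.6 to 59.5 CPM in the other 5. Thus 3 components of the lectican matrix and the membrane collagen had the same highest cluster.

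Sparcl1 was highest in cluster 28, 163 cells led by Sln, Ctxn3 and Ebf3, at 483 CPM against a median cluster of 101 CPM, and its 5 libraries spanned 388 to 632 CPM. The same cluster had the highest Ncan, at 65.3 CPM against 18.1 CPM. Cluster 14, 1226 cells with Irs4, Galnt16, Pgr and Prlr among its 10 leading genes, had the highest Agrn (77.9 CPM against 19.9) and Col4a2 (42.7 CPM against 9.91). Col11a1 was highest in cluster 31, led by Prok2, at 90.9 CPM against 13.8 CPM. Col12a1 reached 61.9 CPM in cluster 4, led by Sst and Prdm8, against 3.27 CPM, and Lamb3 36.7 CPM in cluster 12, led by Nr4a2, against 6.15 CPM. Hapln1 reached 23.5 CPM in cluster 25, led by Crabp1 and the choline transporter gene Slc5a7, against 0.940 CPM. For Acan the highest neuron cluster had 1.94 CPM, from 3 UMIs.

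**Figure D4:**
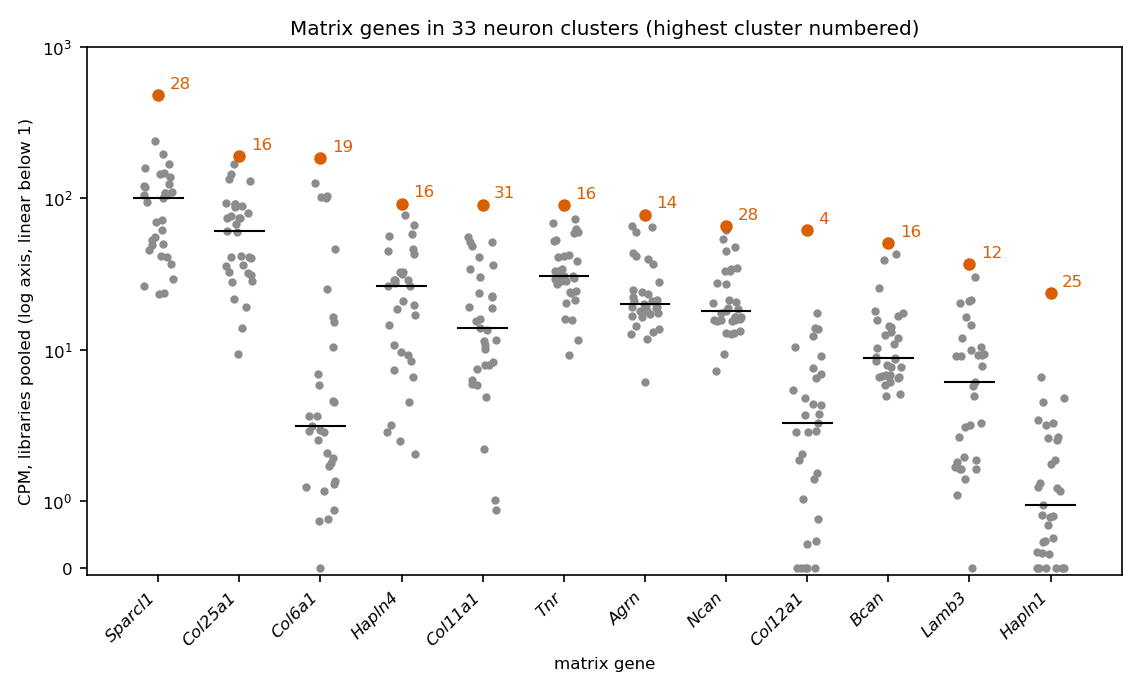
Levels of 12 matrix genes (CPM of the UMIs of all libraries, axis logarithmic above 1 and linear below) in 33 neuron clusters, 1 point per cluster, with the highest cluster in orange with its number and a line at the median cluster. Col6a1 stands out in cluster 19 at 184 CPM, Hapln4, Tnr, Bcan and Col25a1 in cluster 16, Sparcl1 and Ncan in cluster 28 and Agrn in cluster 14.

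Several genes lie next to each other in the genome, and neighbours did not always share a class. Within 100 kb there were 13 neighbouring pairs, 3 of them head to head, and 5 pairs had the same highest class. The 4 lecticans each neighbour a link protein gene. On chromosome 3, Bcan (87987531 to 88000230) lies 21.5 kb from Hapln2 (88021750 to 88027583), and Bcan was highest in precursors while Hapln2 was highest in mature oligodendrocytes. On chromosome 13, Vcan and Hapln1 lie 43.7 kb apart, with highest classes in precursors and astrocytes. On chromosome 8, Ncan and Hapln4 lie 2.2 kb apart, with highest classes in precursors and excitatory neurons. Acan and Hapln3 on chromosome 7 lie 2 bases apart, and over summed UMIs both were highest in precursors, where Hapln3 had 0, 14.2 and 16.9 CPM, overlapping mural cells at 5.53, 18.8 and 102 CPM. Both genes run towards each other there, and no label says whether reads were counted by strand. Col4a1 (chromosome 8, 11198423 to 11312826) and Col4a2 (11312805 to 11449287) overlap by 22 bases at their starts. Over summed UMIs both had fibroblasts as their highest class, but their ranges overlapped those of endothelial cells. Col4a1 had 49.8 to 269 CPM in fibroblasts and 122 to 167 CPM in endothelial cells. Col4a2 had 90.8 to 202 CPM and 73.2 to 164 CPM. Positions are from the GENCODE annotation of mm10.

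Genes with few UMIs are given by count alone. The 14 genes under 100 UMIs over all cells ranged from Col10a1, a cartilage collagen, with 21 UMIs to Lama3 and Col14a1 with 86 UMIs each. Of these, Col4a6, Col22a1, Tnc, Col8a2, Col5a1, Col13a1 and Lamc3 had fibroblasts as their highest class and Col28a1, Col4a3 and Col14a1 mural cells. Col17a1 had its highest class in mature oligodendrocytes with 8 UMIs, Col6a6 in excitatory neurons with 24 UMIs, Col10a1 in inhibitory neurons with 17 UMIs and Lama3 in dividing cells with 1 UMI. The order of classes is not fixed for those with 24 UMIs or fewer in the highest class, while Col13a1 had 64 of its 80 UMIs in fibroblasts. Tenascin-C (Tnc), the tenascin of developing and injured tissue, had 40 UMIs in all.

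Other genes of matrix making and sensing, in lists of 23 collagen-processing genes, 25 matrix receptors, 16 proteases and their inhibitors, 6 hyaluronan genes and 35 other matrix proteins, moved with the classes as follows. The last list holds Dcn, Fmod, Mgp, Ogn, Vtn and Matn4, which were also used to name fibroblasts, mural cells or precursors, so their levels in those classes are no result. In fibroblasts against neurons, 14 of 18 tested collagen-processing genes were higher and 0 lower, and 22 of 27 other matrix proteins were higher and 4 lower, beside the 11.1% and 19.3% of all genes. Pcolce, an enhancer of procollagen cleavage, had 1646 ± 562 CPM in fibroblasts and 0.346 ± 0.118 CPM in neurons (SD, n = 5 each), a difference of 11.98, and Serpinh1, the collagen chaperone HSP47, 880.0 ± 251 CPM and 3.77 ± 1.00 CPM, a difference of 7.94. Serpinh1 was higher in endothelial cells too (360 ± 150 CPM, against 5.30 ± 3.86 CPM in neurons, SD, n = 6 each). Endothelial cells had 6 of 7 tested processing genes higher and 1 lower, beside 29.3% and 31.4% of all genes, and mural cells 6 of 8 higher and 0 lower, beside 14.8% and 62.4%. Proteases and inhibitors were mixed, with 3 of 6 higher and 3 of 6 lower in endothelial cells, in mural cells and in astrocytes. Of the hyaluronan genes, 1 was tested in endothelial cells and was higher, and 1 of 3 in fibroblasts was, Cemip, a hyaluronan-degrading protein, at 160.1 ± 101 CPM in fibroblasts and 1.95 ± 0.330 CPM in neurons (SD, n = 5 each), a difference of 6.15. In astrocytes 7 of 9 processing genes and 9 of 12 receptors were higher and 0 lower, beside 21.4% and 41.2% of all genes, led among receptors by the syndecan Sdc4 at 237 ± 51.9 CPM, against 2.03 ± 0.829 CPM in neurons (6.73 ± 0.186). Precursors had 9 higher and 2 lower of 11 processing genes, 8 and 2 of 10 receptors and 7 and 2 of 10 proteases and inhibitors, beside 36.3% and 38.8% of all genes. Microglia had 5 and 2 of 7 processing genes, 6 and 5 of 11 receptors, and 1 and 6 of 7 other matrix proteins, beside 19.5% and 69.3% of all genes, with Sdc4 at 673 ± 143 CPM against 2.03 CPM in neurons (8.29 ± 0.196).

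Of 9 matrix receptors tested, 6 were higher in mural than endothelial cells and 2 lower, beside 14.1% and 20.7% of all genes. Itga7, a laminin-binding integrin chain, had 153 ± 42.4 CPM in mural and 4.41 ± 3.58 CPM in endothelial cells (4.84 ± 0.316), while Itga6, another laminin-binding chain, had 1.53 ± 1.91 CPM in mural and 183 ± 37.6 CPM in endothelial cells (-6.05 ± 0.363; SD, n = 6 each). In mature oligodendrocytes against precursors, 3 receptors were higher and 6 lower of 9, and 3 proteases or inhibitors were higher and 7 lower of 10, beside 34.9% and 35.2% of all genes. Itgb4 had 63.0 ± 7.13 CPM in mature oligodendrocytes and 0.674 ± 0.913 CPM in precursors (6.76 ± 0.266), and the inhibitor Timp4 4.66 ± 1.88 CPM and 202 ± 31.9 CPM (-4.80 ± 0.131). Adamts4, a protease that cuts lecticans, had 72.6 ± 13.8 CPM in mature oligodendrocytes and 1.03 ± 0.518 CPM in neurons (6.69 ± 0.111). In inhibitory against excitatory neurons, 1 of 17 processing genes was higher and 4 lower, beside 18.2% and 17.4% of all genes, with the procollagen protease gene Adamts2 at 1.74 ± 1.32 CPM in inhibitory and 18.9 ± 11.9 CPM in excitatory neurons (-3.76 ± 0.143).

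Between the sexes no matrix gene was called in the main fit, which had no block, nor any gene of those other lists. The test took all cells together and those classes that had 20 or more cells in every one of the libraries, which were inhibitory neurons, mature oligodendrocytes, precursors, astrocytes, endothelial cells and cluster 13. In all cells 67 genes were tested, in inhibitory neurons 49, in precursors 21, in mature oligodendrocytes 15, in astrocytes 14, in endothelial cells 12 and in cluster 13 9. The edgeR test called 0 in each, and DESeq2 called 0 as well. The share of all genes called higher and lower in females was 0.0124% and 0.0311% in all cells, 0.0138% and 0.0344% in inhibitory neurons, 0.00974% and 0.0487% in mature oligodendrocytes, 0.0104% and 0.0417% in precursors, 0.012% and 0.036% in astrocytes, 0.0176% and 0.0176% in endothelial cells and 0.0116% and 0.0462% in cluster 13. At an unadjusted p under 0.05 edgeR had 2 genes in all cells, 7 in inhibitory neurons, 2 in precursors, 1 in endothelial cells and 0 in the other 3. DESeq2 had 1, in precursors. The smallest adjusted p was 0.737, in inhibitory neurons.

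In inhibitory neurons, Agrn had 19.4, 23.4 and 23.0 CPM in female and 29.2, 29.1 and 27.8 CPM in male libraries. The sexes did not overlap, and the difference of -0.37 ± 0.120 had an adjusted p of 0.737 by the edgeR test. With the replicate number as block Agrn was called (-0.38, adjusted p = 0.0241 by edgeR). The labels do not state that replicate numbers pair libraries, so that fit is an alternative only. Of the 49 genes tested there, 39 had a difference below 0, with a median of -0.26, beside a median of -0.0076 over all genes. Separation of the sexes was seen for 9 of the 49, beside 12.5% of all genes with at least 60 UMIs. In precursors Sparcl1 had 696, 613 and 513 CPM in female and 397, 511 and 388 CPM in male libraries (0.52 ± 0.167, unadjusted p = 0.00605 by edgeR's test across all genes), again without overlap. With the replicate number as block Sparcl1 was called as well (0.51, adjusted p = 0.0264 by edgeR). Of 21 genes with at least 60 UMIs in precursors, 2 separated the sexes, beside 7.58% of all genes. In endothelial cells Fn1 had 308, 268 and 244 CPM in female and 376, 452 and 346 CPM in male libraries (-0.55 ± 0.244, unadjusted p = 0.0463 by edgeR's test across all genes), and 2 of 11 separated, beside 5% of all genes. In all cells Col20a1 had the smallest p (-1.17 ± 0.343), at levels of 0.753 CPM or less, and 5 of 67 genes separated the sexes, beside 6.36% of all genes. With 3 libraries a side, of which female 3 is shallow, many differences may not have been detectable. In simulated data for all cells, the fit recovered 13 of 100 planted log2 changes of 1 and 91 of 100 of 2. Of its calls there, 10.34% were false. The 0 calls between the sexes therefore do not show that log2 differences of 1 were absent.

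**Figure D5:**
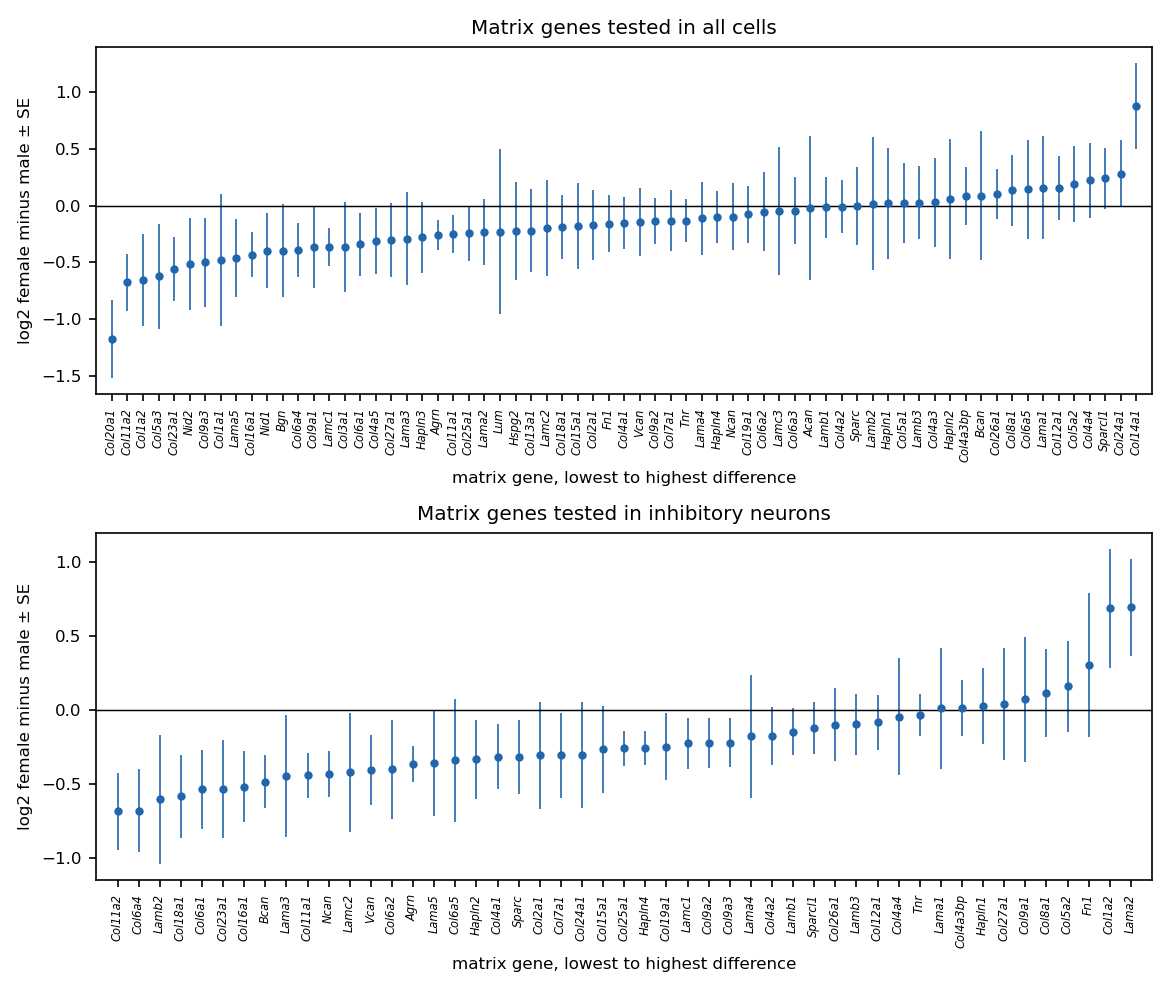
Female minus male differences (log2, bars are standard errors) of the matrix genes tested in all cells and in inhibitory neurons. Points lie on both sides of 0 but more often below it, for 49 of 67 genes in all cells and 39 of 49 in inhibitory neurons. Col20a1 at -1.17 and Agrn at -0.37 are named in the text, and 0 of 67 and 0 of 49 genes were called.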

How the data were processed

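The 6 libraries were deposited together in 1 matrix of raw UMI counts per gene and cell barcode, whose barcode suffix gives the library, made by the authors with Cell Ranger 2.0.0 and the mm10 build, per the submitters' processing notes. Annotation version, strand, chemistry and cell calling: not given in the sources used here. Counts held 31299 barcodes and 217266089 UMIs, 1278429 to 81162330 per library, and 65 gene symbols occurred more than once.

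Barcodes with at least 500 genes and at most 20% mitochondrial UMIs were kept (475 left out), and Scrublet (expected rate 0.06, in scanpy 1.11.5) removed 1002 doublets (3.25%). Counts scaled to 10000 per cell gave 2000 variable genes, 30 components and 15 neighbours, and Leiden clusters (leidenalg 0.10.2, igraph 0.11.9) at resolution 1.0, with neurons reclustered at 1.5 and mural cells at 0.5 (1000 variable genes, 15 components, seed 0). A cluster was a neuron with 8 or more of 10 neuronal markers in at least 50% of its cells. It was inhibitory where at least 50% held each of Gad1, Gad2 and Slc32a1 and under 25% held Slc17a6. It was excitatory where at least 50% held Slc17a6 and under 25% held Slc32a1. Other names needed at least 3 markers up by log2 1 in at least 10% of cells, and cluster 13 lost its name because its 10 leading genes went against it. Mural sub-clusters with 5 or more neuronal markers stayed unnamed, a scoring chosen after the data had been seen. UMIs were summed per library and class with at least 5 cells (20 for sex).

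Sums were scaled by TMM, filtered with filterByExpr (minimum count 10) and tested with edgeR 4.0.16 (limma 3.58.1, R 4.3.3), at an adjusted p under 0.05, with library as block between classes, since classes come from the same pools, and no block between sexes. Labels name separate pools and do not state that replicate numbers pair libraries across sexes, so numbers were not taken to pair them. Same-numbered female and male libraries deviated together with correlations of 0.37, 0.08 and 0.30. DESeq2 1.42.0 was an alternative. The fits were tested on simulated data. Python 3.11.15, numpy 2.4.6, scipy 1.17.1, pandas 2.3.3, anndata 0.12.19, scikit-learn 1.9.0 and matplotlib 3.10.9 were used.

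Genes and lists were chosen with earlier results of these data known. Any of the 75 genes could be named, those at 50 CPM or more in a class with values in each library. Up to 6 per direction with the largest called change came first, for sex up to 3 per class by smallest p, and from other lists up to 2 by smallest p. A fold against a class at 0 uses a floor of 3 UMIs over the group. Intervals cover counting error only.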

Additional observations from a re-analysis of the deposited data

Results flagged for a closer look

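Of 74 sets of library values examined, 7 held a library far from the others, where chance gives about 1 in 20. Of 99 sex effects examined, 0 were flagged for opposite directions in different classes. Signs did differ between classes for uncalled genes, such as Sparc at -0.58 in endothelial cells and 0.43 in astrocytes. Female 3 accounts for 4 of the 7 sets. In its 5 mural cells Col4a2 was at 0, against 93.7 to 143 CPM in the other libraries, and in its 6 excitatory neurons Sparcl1 was at 104.5 CPM, against 154 to 182 CPM. Hapln2 in its astrocytes was at 0, against 59.4 to 78.0 CPM, and that library held no cell of the smaller astrocyte cluster, where Hapln2 lay. In its mature oligodendrocytes Hapln2 was at 491 CPM, against 277 to 332 CPM. In male 3, mural Bgn stood at 549 CPM, against 102 to 222 CPM, and that library had 9 of the 25 pericytes. Endothelial Agrn was at 0 in male 3, against 49.5 to 74.6 CPM. Fibroblast Fn1 was at 147 CPM in female 2, with 0 in the other 4 libraries. Why these libraries differed was not tested.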

How the results depend on the processing

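Over 208 named genes and 2914 values under alternatives, 2818 kept direction and side of the threshold, 86 lost their call, 4 gained one and 6 reversed: Hapln2 in fibroblasts minus neurons with thinned cells (-0.00272), Col6a1 in astrocytes minus neurons with all classes in 1 fit (0.40), Agrn in precursors minus neurons with thinned cells (-0.00823), Sparcl1 in microglia minus neurons with DESeq2 (0.0865) and with doublets kept (0.25), and Col4a3bp in mature oligodendrocytes minus precursors without scaling (-0.23). Counts of matrix genes called moved most where the tested set changed. The share of all genes called moved too. In mural cells against neurons it was 14.8% higher and 62.4% lower in the main fit, and 25.4% and 30.7% with at least 20 cells. The counts in this and the next paragraph stand without that share for each setting, so they show how calls moved and are no result about matrix genes. Without a filter, higher and lower calls were 25 and 12 in endothelial cells, 30 and 12 in mural cells and 24 and 11 in astrocytes, each against neurons. Microglia then had 7 and 18, fibroblasts 3 lower, precursors 13 lower and mature oligodendrocytes 31 lower. Mural minus endothelial had 14 higher, fibroblasts minus mural 26 higher, mature oligodendrocytes minus precursors 6 and 26, inhibitory minus excitatory 13 lower and smooth muscle minus pericytes 2 higher and 1 lower. With each cell thinned to 1500 UMIs the counts were 6 and 1 in endothelial cells, 12 and 7 in mural cells, 4 and 2 in astrocytes, 1 and 2 in microglia, 10 higher in precursors and 4 higher in mature oligodendrocytes. There, mural minus endothelial had 3 higher, fibroblasts minus mural 1 lower, mature oligodendrocytes minus precursors 1 and 10, inhibitory minus excitatory 1 and 3 and smooth muscle minus pericytes 1 lower. With all classes in 1 fit, chosen after the data had been seen like the 3 other added alternatives, they were 23 and 8 in endothelial cells, 26 and 8 in mural cells, 2 lower in fibroblasts, 24 higher in astrocytes, 9 lower in precursors and 8 higher in microglia. That fit gave 13 higher for mural minus endothelial, 28 higher for fibroblasts minus mural and 5 and 27 for mature oligodendrocytes minus precursors. With at least 20 cells mural cells had 21 and 9 and microglia 4 higher, and with doublets kept mural cells had 6 lower and microglia 4 higher. Fibroblasts had 2 lower without scaling, DESeq2 gave inhibitory minus excitatory 4 higher, and without the smaller astrocyte cluster astrocytes had 2 lower. The cause was not tested.

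Leaving out 1 library at a time gave higher and lower calls of 10 to 15 and 4 to 8 in endothelial cells, 6 to 21 and 3 to 9 in mural cells, 25 to 30 and 1 in fibroblasts, 7 to 15 and 5 to 7 in astrocytes, 16 to 22 and 5 to 8 in precursors, 7 to 10 and 15 to 19 in mature oligodendrocytes and 2 to 4 and 10 to 12 in microglia, each against neurons. It gave 5 to 7 and 3 to 5 for mural minus endothelial, 9 to 19 and 1 to 2 for fibroblasts minus mural, 1 to 3 and 17 to 18 for mature oligodendrocytes minus precursors, 5 to 10 and 6 to 9 for inhibitory minus excitatory, 1 and 1 to 2 for smooth muscle minus pericytes and 0 for each sex comparison. Without the library block between classes, fibroblasts had 2 lower and inhibitory minus excitatory 3 higher. The replicate number as block between sexes gave 5 genes lower in females in inhibitory neurons and 1 higher in precursors, where the fit without it had 0. Agrn, Col11a1 and Ncan were among the 5, and Sparcl1 was the 1 in precursors. Female 2 correlated best with male 1 (0.30) and not with its own number (0.0789). Every other library correlated best with that of its own number, at 0.37 for number 1, 0.0789 for 2 and 0.30 for 3. A minimum of 20 cells left no fit for fibroblasts or for smooth muscle minus pericytes, and doublets kept and resolution 0.6 none for the last. Without scaling the median of all genes moved by -0.36 in endothelial cells and 0.17 in mural cells, each against neurons. Depth limits fibroblasts, pericytes and female 3 most.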

Other observations

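Dividing cells, 117 in all with none in female 3, had 1441, 1682 and 2269 CPM of the 75 genes at the lowest, median and highest of 5 libraries, with 7 genes at or above 50 CPM. Macrophages, 77 cells, had 353, 385 and 439 CPM over 4 libraries and 1 gene at or above 50 CPM. Neither class was tested.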
